A study of Mus musculus with 2 samples.

Results

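Cytosolic ribosomal protein genes encode the proteins that, with ribosomal RNA, build the large and small subunits of the cytosolic ribosome. They were taken here by name, as every gene row named Rpl or Rps followed by a digit together with Rpsa, Rplp0, Rplp1 and Rplp2, without pseudogene names carrying -ps and without the Rps6k kinases. The rule found 86 of the 32285 gene rows, and their coding genes lie on 19 chromosomes. They were followed in 1 control library and 1 library labelled Utx-deleted, both of mouse bone marrow cells positive for Kit and for the CD45.2 form of the leukocyte antigen CD45, collected 10 weeks after transplantation. UTX, encoded by Kdm6a, is a histone demethylase that belongs to the complexes of the methyltransferases MLL3 and MLL4. The strain, the sex, the deleted allele, the Cre driver, the number of animals and the state of the host's own blood cells are not given in the sources used here. Cells were stained with antibodies carrying DNA barcodes and were sequenced with 10x Genomics 3-prime chemistry, so that messenger RNA of each cell was counted as unique molecular identifiers (UMIs). With 1 library per group no test between the conditions was possible. Each difference is one between these libraries, and intervals are exact 95% intervals that cover counting error only.

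Ribosomal proteins are needed in nearly equal numbers, because each ribosome holds a single copy of almost every one of them. Their messenger RNAs are among the most abundant of growing cells, and many begin at a C followed by an unbroken run of pyrimidines, the terminal oligopyrimidine (TOP) tract, through which mTOR signalling and the protein Larp1 control their translation. In the neutrophil lineage, dividing progenitors that make the granule proteins Elane and Mpo have large nucleoli, whereas maturing neutrophils stop dividing and make little new ribosome. Blood formation is known to be sensitive to ribosomal protein dosage, as loss of a single copy of some of these genes causes Diamond-Blackfan anaemia.

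The control library held 7827 barcodes with 122130256 gene UMIs. There were 7883 barcodes with 129736034 gene UMIs in the library labelled Utx-deleted. Filters and doublet removal kept 7011 and 7206 cells with medians of 12367 and 11816 gene UMIs. Barcode sequences shared by both libraries numbered 17, of which 13 were kept in both. Kdm6a was at 109.8 counts per 1e+06 gene UMIs (CPM) among control cells and at 103 CPM among those labelled Utx-deleted. Reads from the transcript's end cannot show the loss of an inner exon, so these values do not check the label. Each library held antibody hashtags named 1 and 2, whose meaning the labels do not state. They are used below as subsets inside a library, not as replicates.

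Cells were put into stages by UMIs of marker genes, counted per 10000 gene UMIs that are not of ribosomal protein genes, so that the members took no part in their own grouping. Stem-like cells were under the granule gene cuts and held at least 1 UMI each of Hlf and Mecom, transcription factors of blood stem cells, and numbered 300 in the control library and 63 in the other. Early progenitors without both, with Cd34, Flt3 or related markers, numbered 197 and 69. Progenitors rich in Elane, Mpo and Prtn3 numbered 645 and 704. Cells rich in Ltf, Camp and Ngp, the secondary granule genes, were split into Fcnb-positive pre-neutrophils (894 and 403), Ltf neutrophils (3278 and 4089) and late neutrophils rich in Retnlg, Mmp8 and Cxcr2 transcripts (1075 and 1108). The neutrophil stages thus held most kept cells of a Kit-positive sort. Kit itself was at 329.6 and 315 CPM in stem-like cells and at 30.4 and 18.1 CPM in late neutrophils. The cuts were set after the marker counts were seen, and between 0.176% and 7.37% of the cells at each cut lay within 20% of it.

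RefSeq start regions on GRCm38.p6 were found for 66 of the 86 members. The sequences printed here run from 10 bases before the annotated start to 20 bases after it, with the longest run of C and T around the start in capitals. They show the pyrimidine run of the family in members that later results turn on, and Rpl37a as a member whose annotated start has a short one.
Rpl35 (chr2:39005112-39005141, minus strand): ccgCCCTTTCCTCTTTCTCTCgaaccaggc
Rps27 (chr3:90213629-90213658, minus strand): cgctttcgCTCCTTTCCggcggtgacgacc
Rps9 (chr7:3704031-3704060, plus strand): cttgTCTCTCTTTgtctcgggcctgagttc
Rps6 (chr4:86857348-86857377, minus strand): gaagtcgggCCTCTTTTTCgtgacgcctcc
Rpl12 (chr2:32961702-32961731, plus strand): agcaggatccgTCTTTTCggctttcggctc
Rpl37a (chr1:72711250-72711279, plus strand): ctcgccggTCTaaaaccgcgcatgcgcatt
The run was 18 bases long at Rpl35 and 3 at Rpl37a. A run of at least 7 C or T that touched the 5 bases on either side of the start was found in 29 of the 66 members, or 43.9%, and in 16.4% of the 27025 genes in the table. The 300 bases from 250 before to 50 after each start were also searched on both strands. CCGGAAG, the core bound by ETS family factors such as GABPA, was in 39.4% of the members and in 9.93% of all genes, CTTTCC in 54.5% and 29.3%, and TATAAA, the TATA box, in 10.6% and 15.7%. CTTTCC can lie inside a pyrimidine run, so its count overlaps with that of the runs. A match is a description of letters and not of a bound site.

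Ribosomal protein transcripts made up 21.98% of all gene UMIs in Elane progenitors of the control library and 1.996% in late neutrophils, an 11.01-fold lower share. In the library labelled Utx-deleted the shares were 24.01% and 1.93%, a 12.4-fold difference. Before the Elane stage the levels were close to its own: stem-like cells were at 18.8% in the control library and 20.3% in the other, and early progenitors at 19.8% and 20.4%. The step lay between the Elane and the Fcnb stage, where the pooled share was 5.58% and 4.92%, and Ltf neutrophils were lower still, at 3.70% and 4.42%. The Fcnb level depended on the marker cuts, with 4.64% and 4.21% at lower cuts and 8.15% and 7.11% at higher ones. At lower cuts the Ltf shares were 4.08% and 4.75%, the latter above the Fcnb share of that library.

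In the control library the medians over cells stood in the same order as the pooled shares. In the other library they did not for the first 2 stages, where the median was 21% in stem-like cells and 20.3% in early progenitors and the pooled shares were 20.3% and 20.4%. The median cell of the control library held 22.3% in the Elane stage, with quartiles of 20.7% and 23.8%, and 1.95% in the late stage, with quartiles of 1.69% and 2.29%. Ltf neutrophils had medians of 2.76% and 2.81%, below their pooled shares. Ltf cells over 10% numbered 57 and 144 and held 5.37% and 9.19% of the stage's UMIs. Both hashtags were present in 33.3% and 40.3% of these cells, against 4.18% and 9.22% of the whole stage. The 10% line was chosen after the values were seen.

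The lower share came with fewer ribosomal protein UMIs in each cell, and not with more UMIs of other genes. In the control library the median cell held 6757 member UMIs in the Elane stage, 762 in the Fcnb stage, 296 in the Ltf stage and 113 in the late stage. From the Elane to the late stage that is 59.8-fold fewer, while UMIs of all other genes were 4.13-fold fewer. In the other library the same comparison gave 50.1-fold for the members and 2.86-fold for the rest. Monocyte progenitors, chosen by F13a1, Irf8 and related markers, had shares of 21.4% and 22.9%, near those of Elane progenitors. Erythroid cells were at 20.9% over 96 cells and 25.7% over 11 cells. B-cell progenitors were at 16.7% and 16.3% pooled. Their medians over cells were 14.9% over 72 cells and 10.97% over 31 cells.

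**Figure D1:**
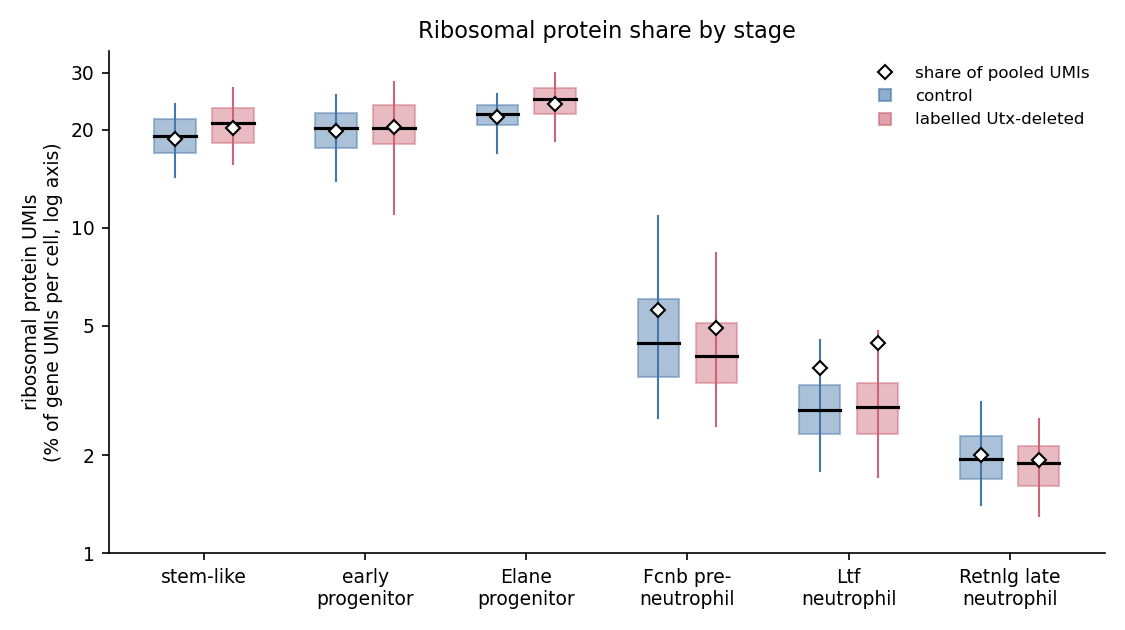
Ribosomal protein share of gene UMIs per cell (percent, log axis) by stage, for control and for the library labelled Utx-deleted; boxes are quartiles over cells with the median as a line, whiskers run from the 5th to the 95th percentile, and diamonds are pooled shares. In both libraries the stages up to the Elane progenitor sit between 18.8% and 24.01% pooled, and the late neutrophils near 1.996% and 1.93%.

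Dividing cells, here those with at least 10 UMIs of Mki67, Top2a and related genes per 10000, did not have the higher share in the progenitor stages. In control Elane progenitors the share was 21.6% in cycling cells and 22.5% in the others, and in the other library 22.8% and 25.2%. Stem-like cells showed the same order, with 18.3% and 19.8% in control and 19.2% and 22.4% in the other. In the Fcnb stage the order was the opposite, with 5.79% in cycling and 4.79% in non-cycling control cells, and 5.13% and 4.52% in the other library. Cycling cells were deeper, with a median of 34563 gene UMIs against 26071 in control Elane progenitors, and the part of depth in this difference was not tested. By the antibody tag for CD117, the Kit protein, the lowest and the highest of 3 equal bins of Elane progenitors had shares of 21.8% and 22.01% in control and 22.96% and 25.2% in the other.

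The members with the most UMIs over both libraries were Rpl13, Rps2 and Rps3a1, the first in the large subunit and the others in the small one. Rpl13 (chromosome 8, 123102350 to 123105244, plus strand, GENCODE M21 on GRCm38) had 4616, 5043, 5844, 1385, 846 and 352 CPM in the control library from the stem-like to the late stage, and 4585, 4828, 5677, 1024, 903 and 242 CPM in the other. Rps2 (chromosome 17, 24718116 to 24721929, plus strand), which lines the channel where messenger RNA enters the small subunit, had 4220.2, 4287, 6255, 895, 525 and 194 CPM in the control library and 4245, 3866, 5952, 695, 685 and 134 CPM in the other. Both were highest in Elane progenitors and lowest in late neutrophils in both libraries. Rps3a1 (chromosome 3, 86137940 to 86142702, minus strand) followed the same course, with 4789.7, 4887, 5654, 1295, 860.1 and 458 CPM and 4355, 3943, 5045, 914, 866 and 343 CPM. CPM are not divided by gene length, and for 3-prime counts they compare stages within a gene.

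Of the 86 members, 83 had at least 100 UMIs over the stem-like and late stages of the control library. For each of these 83 the CPM was lower in late neutrophils than in stem-like cells in both libraries, where 71.8% of the 9394 genes with as many UMIs were lower in the control library. The size varied widely among members, from 2.80-fold to 28.9-fold lower in the control library and from 2.90-fold to 48.5-fold in the other. The other members, left out by that minimum, were Rpl3l, Rpl39l and Rpl10l, described below with the variant forms.

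Ribosomes need their proteins in equal numbers, but the mixture of their transcripts was not the same in late neutrophils as in stem-like cells. The share of a member in all ribosomal protein UMIs was compared between those stages as a log2 ratio, late over stem-like. Rps9, a small subunit protein, and Rps27a, made as a fusion of ubiquitin with a small subunit protein, took much larger parts of the mixture in late neutrophils. Rpl10a, Rpl12 at the base of the large subunit's stalk and Rpl3 near its catalytic centre took smaller parts. Rps9 (chromosome 7, 3703993 to 3706897, plus strand) made up 1.68% of ribosomal protein UMIs in stem-like cells and 5.63% in late neutrophils of the control library, and 1.37% and 4.98% in the other. Its log2 ratio was 1.75 (interval 1.71 to 1.78) in the control library and 1.86 (interval 1.81 to 1.91) in the other. Rps27a (chromosome 11, 29545846 to 29548109, minus strand) went from 1.64% to 5.41% in the control library and from 1.58% to 5.33% in the other, with a log2 ratio of 1.72 (interval 1.68 to 1.76) in the control library and 1.75 (interval 1.70 to 1.80) in the other. Both genes were still lower in late neutrophils in CPM, Rps9 with 3154 and 1124 in the control library and Rps27a with 3082 and 1081.

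Together Rps9 and Rps27a held 3.32%, 3.30%, 3.58%, 5.13%, 6.22% and 11.05% of ribosomal protein UMIs in stem-like cells, early progenitors, Elane progenitors, Fcnb pre-neutrophils, Ltf neutrophils and late neutrophils of the control library. In the other library the values were 2.96%, 3.09%, 3.40%, 5.07%, 5.41% and 10.3%. From the Elane stage on, their combined part was higher at each later stage in both libraries, and highest in late neutrophils. Rps27, whose protein sits on the small subunit's surface, had a log2 ratio of 1.31 (interval 1.23 to 1.39) in the control library and 1.55 (interval 1.47 to 1.63) in the other. Its near copy Rps27rt had 1.12 and 1.04, and reads of these genes may have been split between them. Rpl37, a small zinc-binding protein of the large subunit, had 0.81 and 0.89.

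Rpl10a (chromosome 17, 28328471 to 28331033, plus strand) went the other way, from 1.10% of ribosomal protein UMIs in stem-like cells to 0.358% in late neutrophils of the control library and from 0.971% to 0.210% in the other. Its log2 ratio was -1.62 (interval -1.76 to -1.49) in the control library and -2.20 (interval -2.38 to -2.05) in the other, the lowest of the 83 members in both libraries. Rpl12 had -1.59 and -2.10, Rpl3 had -1.57 and -1.88, Rpl36a had -1.33 and -1.85, and Rps2 had -1.21 and -1.58. Rpl12 and Rps9, at opposite ends of this order, each carry a pyrimidine run at the start sequences printed above, of 7 and 9 bases. Large subunit members held 53.3% of ribosomal protein UMIs in stem-like cells and 49.5% in late neutrophils of the control library, and 53.7% and 50.6% in the other.

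The reordering was of like size in both libraries. Across the 83 members the log2 ratios of the libraries had a Spearman correlation of 0.958, and 73 had the same sign. Members are not independent of each other, because their shares sum to a whole. The part of the ribosomal protein UMIs that would have to be moved from some members to others to turn the stem-like mixture into the late one was 18.96% in the control library and 21.9% in the other. From the stem-like to the Elane stage it was 3.86% and 4.02%. Between the hashtags of 1 library it was 0.568% and 0.816% in Elane progenitors and 2.10% and 1.90% in late neutrophils, so the difference between stages was far outside the spread inside a library. The correlation of the stage ratio with coding length across members was weak, at -0.278 in the control library and -0.237 in the other.

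**Figure D2:**
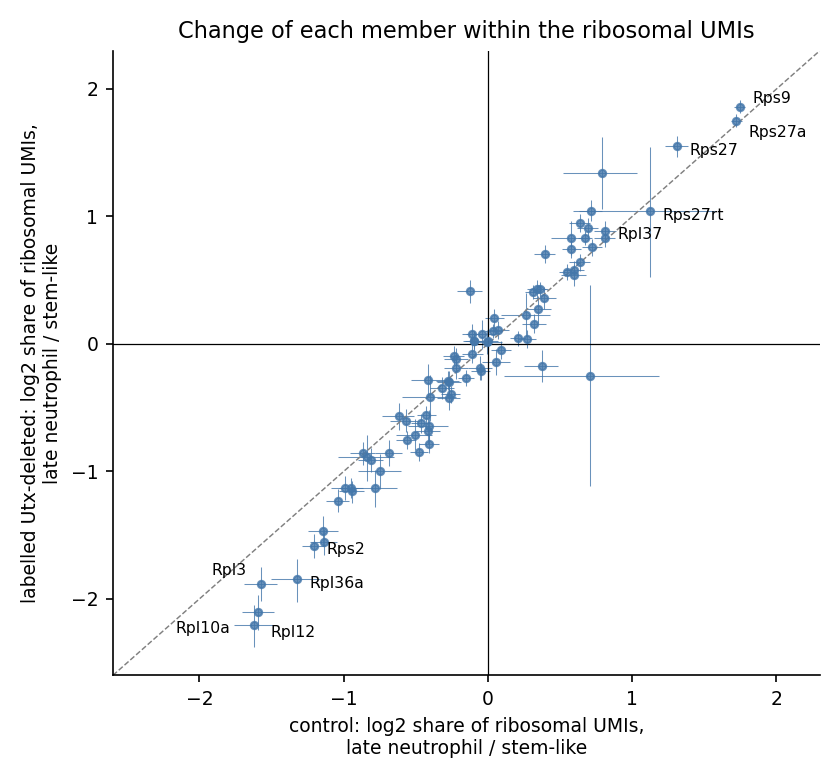
Log2 ratio of each member's share of ribosomal protein UMIs, late neutrophils over stem-like cells, in the control library (horizontal axis) and the library labelled Utx-deleted (vertical axis); points are the 83 members with at least 100 UMIs, lines are 95% counting intervals and the dashed line marks equal values. Rps9 and Rps27a stand at the upper right, at 1.75 and 1.72 in the control library, and Rpl10a and Rpl12 at the lower left, at -1.62 and -1.59.

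Several members are variant forms of another member, and their part in the pair differed by stage. Rpl36al, a near relative of Rpl36a, made up 30.7% (interval 29.9 to 31.6) of the UMIs of the pair in control stem-like cells, 38.8% in Elane progenitors, 57.8% (interval 56.8 to 58.7) in Ltf neutrophils and 45.7% in late neutrophils. In the other library it made up 27.3%, 36.1%, 55.2% and 50.2%. Rps27l, a variant of Rps27 known as a target of p53, was, of the 6 stages, at its highest part of the pair in Elane progenitors, 39.99% (interval 39.4 to 40.5) in the control library and 34.1% (interval 33.7 to 34.6) in the other, and at its lowest in late neutrophils, 16.9% and 13.6%. In stem-like cells it made up 29.6% and 28.2%.

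Rpl22l1, the partner of the tumour suppressor Rpl22, made up 28.6% of its pair in control stem-like cells, 30.1% in Elane progenitors, 36% in Ltf neutrophils and 25.6% in late neutrophils, and 30.5%, 30.6%, 34.9% and 25.98% in the other library. Rpl7l1 stayed a minor form, with 4.60% and 4.53% of its pair in stem-like cells and 6.15% and 8.21% in late neutrophils. Rps27rt made up between 2.34% and 3.31% of its pair with Rps27 over these 4 stages. Rpl3l, a form known from striated muscle, had 160 UMIs over all kept cells. Unlike the 83 members, its CPM was higher in late neutrophils than in stem-like cells. The control library had 3.55 CPM in the late stage against 0.405 CPM in stem-like cells, and the other 3.08 CPM against 0, from few UMIs. In late neutrophils its UMIs came to 3.49% (interval 2.23 to 5.19) of its pair with Rpl3 in the control library, from 23 UMIs, and to 4.52% (interval 2.95 to 6.60) in the other, from 25 UMIs. Rpl39l and Rpl10l, known from the testis, had 0 UMIs in both libraries, which with a floor of 3 counts allows up to 0.0277 CPM in the control library and 0.0262 CPM in the other. Rps19bp1, which the name rule takes although it encodes a protein that binds Rps19, had 5360 UMIs over both libraries.

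Over all kept cells the ribosomal share was 11.2% for control and 11.1% for the library labelled Utx-deleted, a log2 ratio of -0.011. This value sums opposite ones, -0.18 in hashtag 1 and 0.21 in hashtag 2. Within stages the libraries stood further apart, and not in 1 direction. The share was higher in the library labelled Utx-deleted in stem-like cells, with a log2 ratio of 0.11 (interval 0.11 to 0.12), and in Elane progenitors, with 0.13 (interval 0.13 to 0.13). Early progenitors had 0.044 (interval 0.038 to 0.051), but their median cell held 20.29% in the control library and 20.26% in the other. The pooled share was lower in Fcnb pre-neutrophils, with -0.18 (interval -0.19 to -0.18), and in late neutrophils, with -0.047 (interval -0.058 to -0.037). Ltf neutrophils had 0.26 (interval 0.25 to 0.26). All of these are under 25% in the pooled share, and the hashtags 1 and 2 gave values of the same sign in each stage: 0.069 and 0.12 in stem-like cells, 0.040 and 0.036 in early progenitors, 0.16 and 0.091 in Elane progenitors, -0.20 and -0.15 in Fcnb pre-neutrophils, 0.055 and 0.33 in Ltf neutrophils and -0.033 and -0.070 in late neutrophils.

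The value in Ltf neutrophils rested on few barcodes. Over all stages, barcodes that passed the marker cuts of 2 cell programmes numbered 164 and 163. Of these, 15.9% and 34.4% carried both hashtags, against 2.91% and 6.26% of all kept cells. In Ltf neutrophils such barcodes numbered 65 and 141, and in Fcnb pre-neutrophils 97 and 21. Without them the Ltf share was 3.02% in the control library and 3.11% in the other, a log2 ratio of 0.041. Among Ltf cells of the central depth quartiles the sign was the opposite, with a log2 ratio of -0.014. Without barcodes of 2 programmes the shares in Fcnb pre-neutrophils were 4.74% and 4.48%, a log2 ratio of -0.080. Fcnb cells with a ribosomal share over 10% numbered 61 and 13. Unlike those of the Ltf stage, they seldom carried both hashtags, 1.64% and 0% against 4.92% and 7.44% of the whole Fcnb stage. Whether the barcodes of 2 programmes in that stage were doublets was not tested. In late neutrophils the sign was the opposite when the marker cuts were set at lower values, where the log2 ratio was 0.19.

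Single members differed between the libraries more than the sum did. They were counted as higher or lower where their CPM was over 25% higher or 20% lower, a log2 ratio past 0.32 in either direction, and where they had at least 100 UMIs over both libraries. Beside each count stand the percentages of all genes with as many UMIs that were higher and lower by the same rule. In stem-like cells 20 of 83 members were higher and 0 lower in the library labelled Utx-deleted, where the background was 14.7% and 16%. In early progenitors 14 were higher and 1 lower of 83 (background 14.3% and 15.1%). In Elane progenitors 20 were higher and 0 lower of 83 (background 8.71% and 10.9%). In Fcnb pre-neutrophils 3 were higher and 24 lower of 83 (background 6.95% and 17.4%), in Ltf neutrophils 36 higher and 0 lower of 83 (background 13% and 13.6%), and in late neutrophils 8 higher and 15 lower of 82 (background 12.2% and 21.8%). Monocyte progenitors had 17 higher and 0 lower of 83 (background 9.41% and 10.5%), and all kept cells summed 13 higher and 4 lower of 84 (background 7.11% and 20.7%). Over all kept cells the hashtags went opposite ways, with 1 higher and 23 lower in hashtag 1 (background 6.29% and 30.9%) and 31 and 0 in hashtag 2 (background 10.6% and 15.5%). By this rule the part of the members counted as higher was above the background in stem-like cells, Elane progenitors, Ltf neutrophils and monocyte progenitors. It was near or below the background in early progenitors, Fcnb pre-neutrophils and late neutrophils. In stem-like cells this depended on the setting. Past 1.5-fold, 1 of 83 members was higher there, against 4.35% of all genes. In hashtag 1 alone the part was 19.3% against 17.3%, and in hashtag 2 alone 27.7% against 15.8%. Past 1.5-fold, 3 of 83 were higher in Elane progenitors, near the background of 2.77%, and 11 of 83 in Ltf neutrophils, against 5.28%. The part counted as lower was below the background in late neutrophils. In Fcnb pre-neutrophils it was above the background by this rule, but not under each alternative, as given with the counts under other settings.

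The median log2 ratio of the members with enough UMIs was 0.12 in stem-like cells, 0.13 in Elane progenitors, -0.13 in Fcnb pre-neutrophils and -0.065 in late neutrophils, where all genes had medians of 0.0037, -0.027, -0.095 and -0.056. The split depended on the scaling in the neutrophil stages. With TMM factors, which shift each gene by 0.069 in the Fcnb stage, 0.073 in the late stage and 0.12 over all kept cells, the counts were 7 higher and 14 lower in Fcnb pre-neutrophils (background under the same scaling 9.74% and 12.3%), 15 and 12 in late neutrophils (background 17.3% and 16.9%), 11 and 3 in early progenitors (background 11.9% and 17.9%), and 20 and 0 over all kept cells (background 11.3% and 14.1%). As shares of the ribosomal protein UMIs, members stood at 13 higher and 2 lower in stem-like cells (background against the same total 8.85% and 24.1%), 11 and 3 in early progenitors (background 11.5% and 18.5%), and 13 and 4 in Elane progenitors (background 4.73% and 21.9%). They stood at 14 and 5 in Fcnb pre-neutrophils (background 16.9% and 7.62%), 11 and 5 in Ltf neutrophils (background 5.36% and 42.3%), and 13 and 12 in late neutrophils (background 15.4% and 18.5%). Without barcodes of 2 programmes the counts were 14 higher and 2 lower in Ltf neutrophils (background 9.51% and 15%) and 10 and 9 in Fcnb pre-neutrophils (background 7.37% and 16.2%). In Fcnb pre-neutrophils the part of the members counted as lower, 16.9% under TMM, 6.02% as shares of ribosomal protein UMIs and 10.8% without barcodes of 2 programmes, was thus above the background under TMM and below it under the other 2 settings.

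In Elane progenitors the members highest in the library labelled Utx-deleted were small proteins of both subunits, and the lowest were larger ones. Rpl37 (chromosome 15, 5116645 to 5119140, plus strand) was at 1490.5 CPM in the control library and 2316 CPM in the other, a log2 ratio of 0.64 (interval 0.61 to 0.66) with 0.68 and 0.59 in hashtags 1 and 2. Rps21 (chromosome 2, 180257377 to 180258445, plus strand) was at 1821 CPM in the control library and 2754 CPM in the other, a log2 ratio of 0.60 (interval 0.58 to 0.62) with 0.61 and 0.57 in the hashtags. Rpl37a, Rpl39, which lines the exit tunnel of the nascent chain, and Rps26 were also among the highest, at 0.60, 0.58 and 0.55. Rps6 (chromosome 4, 86854660 to 86857412, minus strand), the small subunit protein phosphorylated by the S6 kinases, was lowest, at 2518 CPM in the control library and 2107 CPM in the other, a log2 ratio of -0.26 (interval -0.28 to -0.24) with -0.26 and -0.24 in the hashtags. Rps3, Rpl7, Rpl5, which binds Mdm2 when it is not in a ribosome, and Rpl7a were at -0.23, -0.22, -0.20 and -0.18.

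In stem-like cells the highest were Rps21 (0.60), Rps28 (0.56), Rpl36 (0.55), Rpl41 (0.55) and Rpl35 (0.55). Of these only Rps21 was among the highest named for Elane progenitors. Rps21 was at 1555 CPM in the control library and 2359 CPM in the other, with log2 ratios of 0.53 and 0.62 in the hashtags. Rpl41, which encodes the shortest protein of the ribosome, has 75 coding bases, stop codon included. Among the lowest were Rpl10 (-0.29), Rps3 (-0.25), Rps9 (-0.18) and Rpl5 (-0.14), of which Rpl10 joins the large subunit late in its assembly and Rps3 also takes part in DNA repair. In early progenitors the highest were Rps21 (0.51), Rpl37 (0.50), Rpl36 (0.47), Rpl37a (0.47) and Rpl35 (0.46) and the lowest Rpl7l1 (-0.43), Rps3a1 (-0.31), Rps6 (-0.30), Rpl7 (-0.27) and Rps19bp1 (-0.25). The intervals of Rpl7l1 and Rps19bp1 there were -0.73 to -0.15 and -0.79 to 0.22, the latter including 0.

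In the neutrophil stages small proteins again stood among the highest, and the lowest members differed in part from stage to stage. In Fcnb pre-neutrophils the highest were Rpl41 (0.40), Rps27rt (0.39), Rpl37 (0.37), Rpl37a (0.29) and Rps29 (0.27), with an interval for Rps27rt that includes 0, and among the lowest were Rps6 (-0.64), Rpl5 (-0.59), Rpl10a (-0.53) and Rps3 (-0.51). Rps6 was there at 599.3 CPM in the control library and 384 CPM in the other. In Ltf neutrophils the highest were Rpl39 (0.79), Rpl35 (0.76), Rpl36 (0.73), Rps21 (0.71) and Rpl41 (0.71) and the lowest Rpl5 (-0.16), Rps6 (-0.15), Rps3 (-0.10), Rps9 (-0.10) and Rpl7 (-0.10), and Rpl39 had 0.48 in hashtag 1 and 0.93 in hashtag 2. In late neutrophils the highest were Rps29 (0.49), Rps27 (0.46), Rpl37 (0.43), Rpl37a (0.41) and Rpl30 (0.40). The lowest were Rpl10a (-0.82), Rpl12 (-0.75), Rpl3 (-0.60), Rps6 (-0.55) and Rpl13 (-0.54), and Rpl10a was at 71.5 CPM in the control library and 40.6 CPM in the other, with -1.0 and -0.77 in the hashtags.

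The order of the members went with the length of their coding sequence. Across members with at least 100 UMIs, the Spearman correlation of the log2 ratio between libraries with coding length was -0.870 in stem-like cells (n = 83), -0.864 in early progenitors (n = 83), -0.907 in Elane progenitors (n = 83), -0.900 in Fcnb pre-neutrophils (n = 83), -0.842 in Ltf neutrophils (n = 83) and -0.754 in late neutrophils (n = 82). These members share the same libraries, so the correlations describe this pair of libraries. Between the hashtags of 1 library the same correlation lay between -0.0959 and 0.292 over the 6 stages. All 20 members counted as higher in stem-like cells and all 20 in Elane progenitors had under 450 coding bases, out of 41 such members, a split chosen after the values were seen. Of other genes under 300 coding bases, 63 of 195 were higher in stem-like cells and 51 of 217 in Elane progenitors. Of other genes of at least 300 and under 450 bases, 78 of 441 and 63 of 520 were higher. Over genes of any length the background was 14.7% and 8.71%. Among the 42 longer members 0 were higher in those stages, while all 24 that were lower in Fcnb pre-neutrophils and all 15 in late neutrophils were among them. In Ltf neutrophils 34 of the 41 shorter members and 2 of the 42 longer ones were higher.

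**Figure D3:**
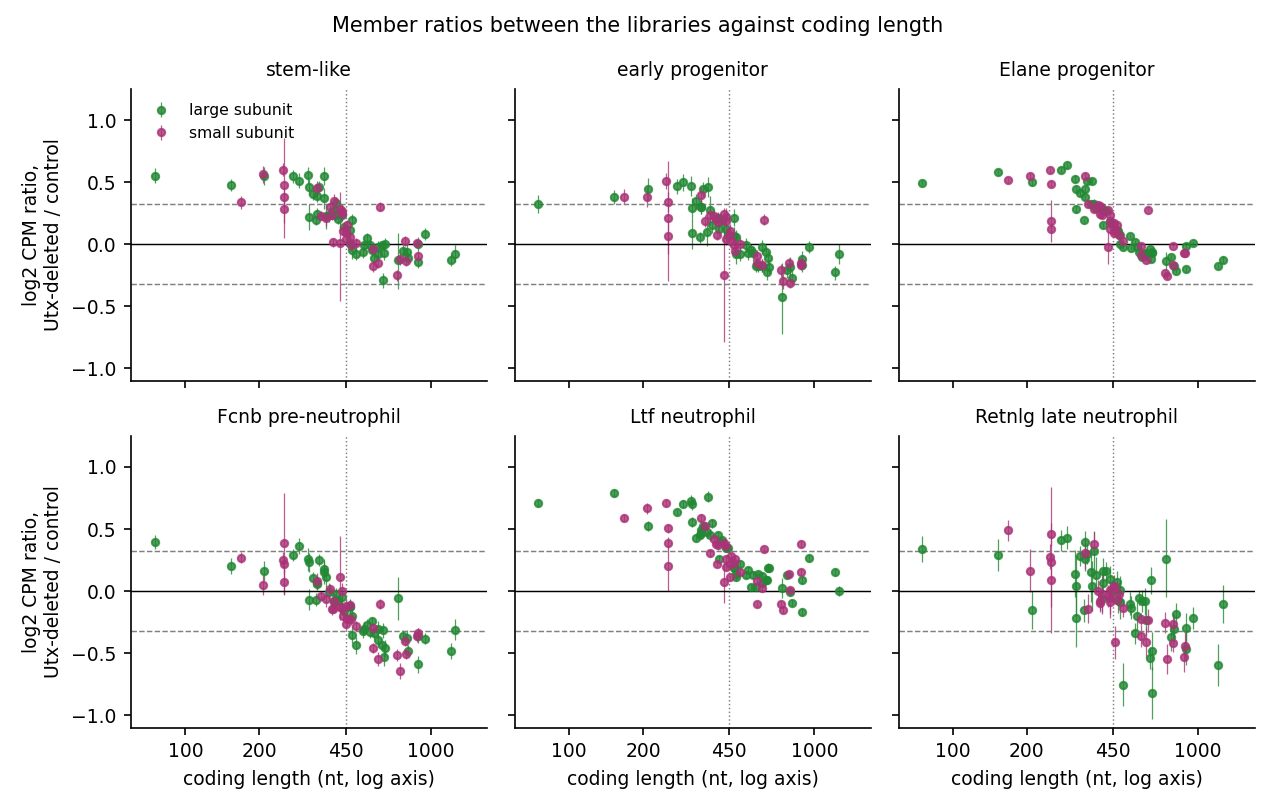
Log2 ratio in CPM between the library labelled Utx-deleted and the control library (vertical axis) against coding length in bases (horizontal axis, log scale) for members with at least 100 UMIs, in 6 stages; lines are 95% counting intervals, dashed lines mark log2 ratios of 0.32 either way and the dotted line 450 bases. In each panel the median of the members under 450 bases lies above that of the longer ones, with medians of 0.31 and -0.051 in Elane progenitors.

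Members under 450 coding bases were therefore summed as a share of all ribosomal protein UMIs. That share was nearly the same in each stage of a library and different between the libraries. Over the 6 stages it lay between 39.1% and 40.1% in the control library and between 44.6% and 46.01% in the other, without overlap. By hashtag and stage, 12 values of the control library lay between 38.9% and 40.5%, and 12 of the other between 44.5% and 46.01%. Monocyte progenitors, B-cell progenitors, megakaryocytes, basophils or mast cells and dendritic cells showed a like gap, with 38.7% to 40.03% in the control library and 44.9% to 46.2% in the other. Erythroid cells had 38.7% over 96 control cells and 44% over 11 cells of the other library. The split at 450 bases was chosen after the member ratios between these libraries were seen. The gap in the summed share therefore describes the libraries and is not separate evidence of a difference.

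The same share was taken in single cells with at least 200 member UMIs. These cells come from the same libraries and are not replicates, so their values describe the spread inside each library. In Elane progenitors the median was 39.4% over 639 control cells and 45.7% over 704 cells of the other library, of which 99.3% lay above the 95th percentile of the control cells. In stem-like cells the medians were 39.4% over 299 and 44.95% over 62 cells, with 100% above that percentile. In late neutrophils, of which only 55 and 123 cells had enough UMIs, they were 38.2% and 45.5%, with 73.2% above it. In early progenitors 95.6% of the cells of that library lay above the percentile, in Fcnb pre-neutrophils 81.8% of 390 and in Ltf neutrophils 67.4% of 3109, the lowest of the 6 stages.

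**Figure D4:**
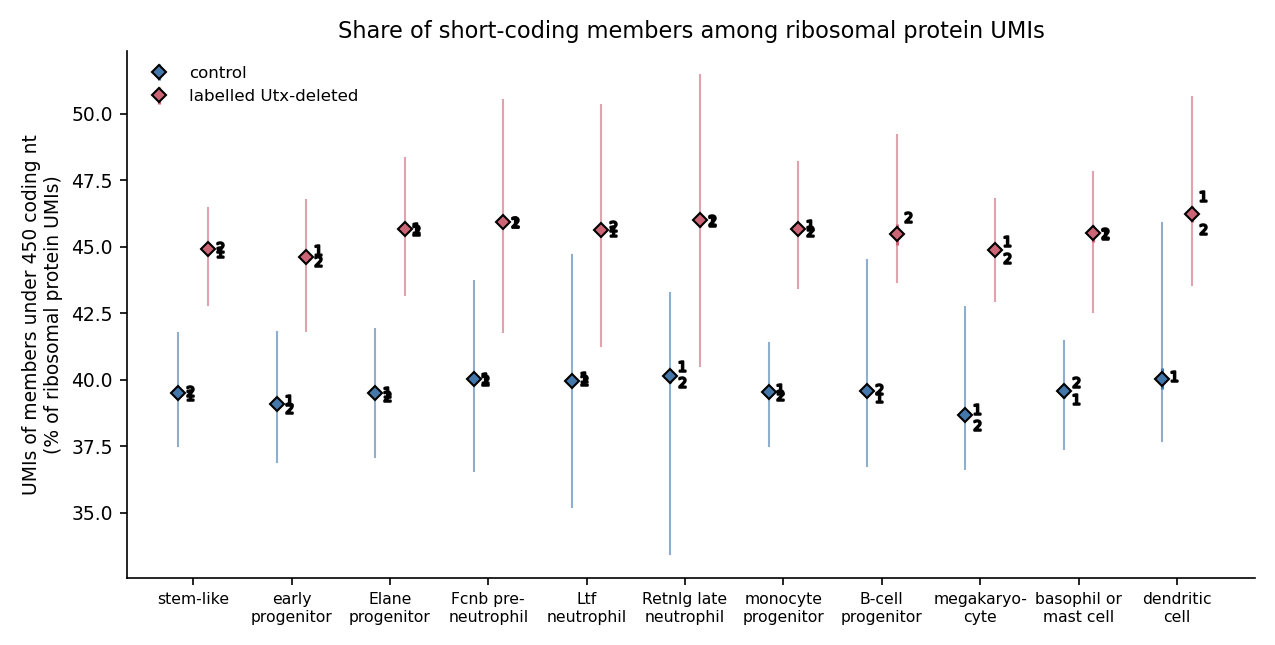
Members under 450 coding bases as a percentage of ribosomal protein UMIs in 11 classes of cells; diamonds are pooled values, the digits 1 and 2 are the hashtags, and lines run from the 5th to the 95th percentile of cells with at least 200 member UMIs. The 6 stages of the control library lie between 39.1% and 40.1%, and those of the library labelled Utx-deleted between 44.6% and 46.01%.

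Among genes outside the family the correlation of the ratio with coding length was closer to 0 than among the members in each stage, with a Spearman correlation of -0.0677 over 8466 genes in stem-like cells, 0.187 over 7100 in early progenitors, 0.0508 over 9960 in Elane progenitors, -0.0196 over 8127 in Fcnb pre-neutrophils, -0.172 over 10037 in Ltf neutrophils and -0.0899 over 6254 in late neutrophils. From stem-like cells to late neutrophils, other genes of at least 300 and under 450 coding bases had median log2 ratios of 0.051, -0.10, -0.015, -0.066, 0.10 and 0.073, where members of that length had 0.25, 0.20, 0.29, -0.031, 0.42 and 0.043. In late neutrophils the median of these other genes was thus above that of the members. Other genes under 300 coding bases had medians of 0.17, 0.012, 0.076, 0.074, 0.12 and 0.13 in the same order, and members of that length 0.51, 0.38, 0.52, 0.25, 0.64 and 0.29. Other genes with the shortest whole transcripts, by a limit chosen after values were seen, had higher ratios. For the 127 other genes with transcripts under 500 bases and at least 100 UMIs in Elane progenitors, the median log2 ratio was 0.23, and for the 10481 longer ones it was -0.030. In stem-like cells the medians were 0.28 over 62 genes and 0.0023 over 8652, and in late neutrophils 0.27 over 53 and -0.057 over 6442. With 1 library per group, the making of the libraries and the deletion cannot be told apart in these differences. When the share was summed over members of at least 450 coding bases only, the log2 ratio between libraries was -0.023 in stem-like cells, -0.093 in early progenitors and -0.028 in Elane progenitors, the opposite sign of the sum over the 86 members. It was -0.33 in Fcnb pre-neutrophils, 0.11 in Ltf neutrophils and -0.20 in late neutrophils. For members under 450 bases it was 0.30, 0.24, 0.34, 0.017, 0.45 and 0.15 in the same 6 stages, from stem-like to late.

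The mixtures of the libraries differed by 5.97% to 6.80% of ribosomal protein UMIs within a stage, less than the 18.96% between stem-like cells and late neutrophils of the control library. For Rpl10a the log2 ratio between libraries was -0.072 in stem-like cells and -0.82 in late neutrophils.

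Other genes of translation were lower in late neutrophils than in Elane progenitors as well, by different amounts. Ribosome biogenesis genes such as Ncl, Fbl and Npm1, which act on ribosomal RNA in the nucleolus, took a share of gene UMIs that was 20.3-fold and 30.5-fold lower in the control library and in the other. Elongation factors were 7.41-fold and 8.04-fold lower, mitochondrial ribosomal proteins 4.95-fold and 4.48-fold and initiation factors 2.98-fold and 2.73-fold. The cytosolic ribosomal proteins, at 11.01-fold and 12.4-fold, stood between the biogenesis genes and the elongation factors. The regulators as a list, Myc and Mtor among them, were 3.18-fold and 3.25-fold lower. Of the cytosolic ribosomal proteins that carry other names, Fau was 2.34-fold and 2.54-fold lower and Rack1 17.4-fold and 21.1-fold.

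**Figure D5:**
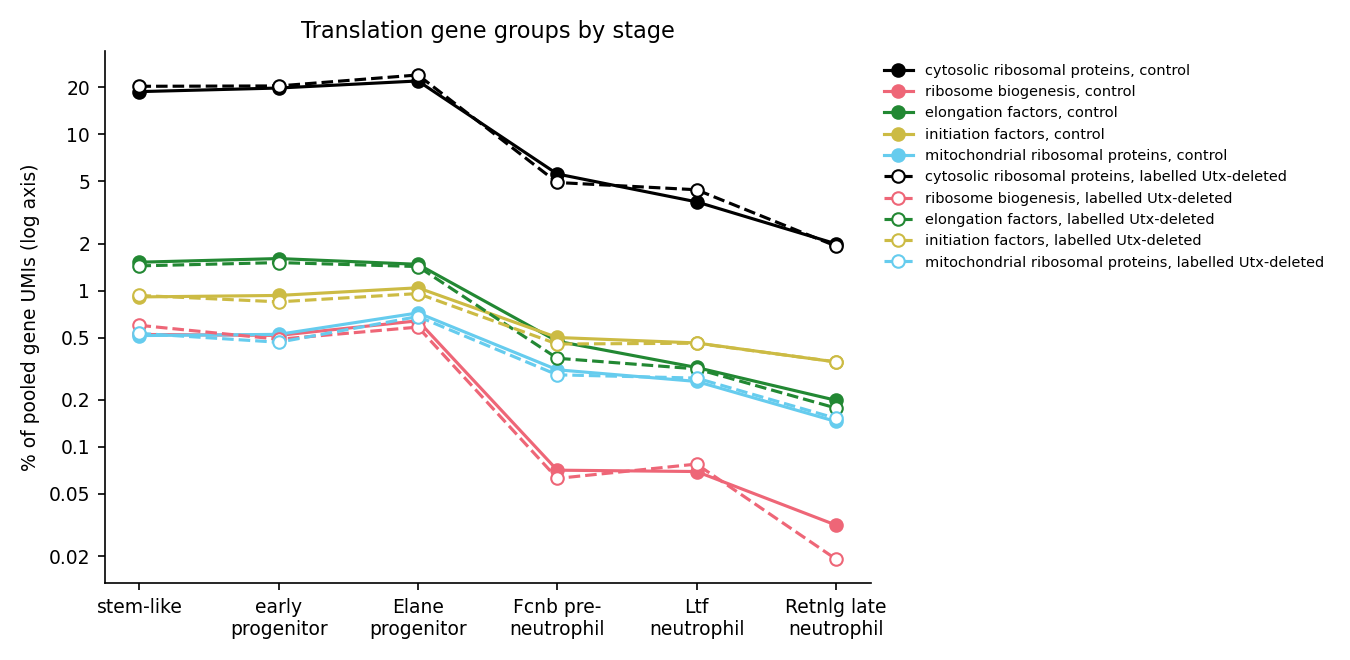
Summed share of gene UMIs (percent, log axis) of the cytosolic ribosomal proteins and other translation lists by stage; solid lines are the control library and dashed lines the library labelled Utx-deleted. From Elane progenitors to late neutrophils the control share of ribosome biogenesis genes is 20.3-fold lower and that of initiation factors 2.98-fold lower.

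Between the libraries, in Elane progenitors, 20 of 83 cytosolic ribosomal protein genes were counted as higher, against 0 of 6 elongation factors, 0 of 52 initiation factors, 0 of 24 ribosome biogenesis genes and 2 of 78 mitochondrial ribosomal proteins. Over all genes with as many UMIs, 8.71% were higher and 10.9% lower in that stage, which is the background for the counts of each list there. The lists differ in coding length, and of the ribosomal protein genes of at least 450 coding bases 0 of 42 were higher. Under 450 bases were 7 of the 52 initiation factors and 24 of the 78 mitochondrial ribosomal proteins. Fau, a ubiquitin-like protein fused to one of the small subunit, was at 2389 and 3163 CPM, a log2 ratio of 0.41, and Rack1, a scaffold on the small subunit, had -0.13. Their coding lengths are 399 and 951 bases. Elongation factors had 0 of 6 genes with at least 100 UMIs counted as higher and 1 lower, with a median log2 ratio of -0.069. Eef1d was at -0.34, Eef1g at -0.26, Eef2 at 0.081 and Eef1a1, which brings aminoacyl-tRNA to the ribosome, at 0.0054.

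Initiation factors had 0 of 52 genes with at least 100 UMIs counted as higher and 3 lower, with a median log2 ratio of -0.090. The lowest were Eif4a3, Eif4a1 and Eif5 at -0.34, -0.34 and -0.33, and the highest Eif2ak3, a stress kinase taken by the name rule, Eif1a and Eif4ebp2 at 0.29, 0.24 and 0.22. The list was taken by name, so not each of its genes is an initiation factor, and Eif4ebp2 also stands in the list of regulators. Ribosome biogenesis had 0 of 24 genes with at least 100 UMIs counted as higher and 1 lower, with a median log2 ratio of -0.11, from Nhp2 (-0.37), Rrp9 (-0.32) and Fbl (-0.27) to Rrn3 (0.062), Pes1 (0.086) and Nop10 (0.27). Mitochondrial ribosomal proteins, which build a separate ribosome, had 2 of 78 genes with at least 100 UMIs counted as higher and 1 lower, with a median log2 ratio of -0.11. They ranged from Mrpl15 (-0.33), Mrpl16 (-0.31) and Mrpl12 (-0.30) to Mrpl33 (0.29), Mrps21 (0.32) and Mrpl52 (0.43), and their correlation with coding length was -0.212 over 78 genes. In the other neutrophil-line stages that correlation lay between -0.379 in Fcnb pre-neutrophils and 0.0261 in early progenitors. Of the regulators, Myc, which drives transcription of ribosomal genes, was at 160.3 and 170.0 CPM, a log2 ratio of 0.085.

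In the other stages the counts are given as higher and lower of the genes with at least 100 UMIs, beside the background. Ribosome biogenesis had 4 and 1 of 24 in stem-like cells (background 14.7% and 16%), 0 and 4 of 24 in early progenitors (background 14.3% and 15.1%), 0 and 4 of 21 in Fcnb pre-neutrophils (background 6.95% and 17.4%), 6 and 1 of 24 in Ltf neutrophils (background 13% and 13.6%) and 0 and 5 of 6 in late neutrophils (background 12.2% and 21.8%). Its median log2 ratios there were 0.21, -0.061, -0.10, 0.18 and -0.63, in the same order. Mitochondrial ribosomal proteins had 4 and 3 of 78, 0 and 16 of 76, 1 and 7 of 74, 3 and 1 of 78 and 7 and 6 of 43, with medians of 0.058, -0.19, -0.16, 0.072 and 0.052. Initiation factors had 6 and 3 of 50, 3 and 5 of 49, 0 and 14 of 51, 2 and 1 of 52 and 2 and 6 of 44, with medians of 0.0097, -0.15, -0.16, 0.010 and -0.10. Elongation factors had 0 and 0 of 6, 0 and 0 of 6, 0 and 5 of 6, 0 and 0 of 6 and 0 and 3 of 6, with medians of -0.073, -0.14, -0.38, 0.041 and -0.28, and the 5 lower ones in Fcnb pre-neutrophils stood beside 24 of 83 ribosomal protein genes. Regulators had 2 and 0 of 8, 1 and 1 of 8, 0 and 1 of 8, 0 and 1 of 8 and 1 and 0 of 7, with medians of 0.10, -0.14, -0.10, -0.12 and 0.011. The Ltf values of all these lists include the barcodes of 2 programmes, 65 in the control library and 141 in the other. Without such barcodes the ribosomal protein genes counted as higher in that stage went from 36 to 14. The lists, ribosome biogenesis among them, are not given without them.

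Among 9200 other genes with at least 1000 UMIs, those whose log2 CPM tracked the ribosomal share most closely over the 12 combinations of stage and library were Gm2000, Ankrd49, Kxd1, Rmnd1 and Wdr89, with Pearson correlations from 0.996 to 0.998. Gm2000 was at 81.7 and 98.8 CPM in stem-like cells and 5.41 and 4.92 CPM in late neutrophils of the control library and the other. The 12 points come from the same 2 libraries and are not independent. The closest opposite pattern was that of Mxd1, a repressor that competes with Myc for Max, at 13.2 and 12.5 CPM in stem-like cells and 1233 and 1379 CPM in late neutrophils, followed by Triobp, Pdzd8, Numb and Slc35a5.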

How the data were processed

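The deposited counts are UMIs per feature and cell barcode, not normalized, which the authors made with Cell Ranger 7.1.0 on mm10, per the submitters' processing notes. Cells with at least 500 genes and under 10% mitochondrial UMIs passed. Scrublet (scanpy 1.11.5) marked 0.0134% and 0% at its automatic threshold and had not worked, so the top 6% of scores were left out (467 and 463 cells), and doublets remain. A hashtag was called at 100 UMIs and 5 times the other. Stages were set by marker UMIs per 10000, with cuts of 50 (Ltf list), 100 (late list), 10 (Fcnb), 50 (Elane list), 3 (early list) and 15 (other classes). The Hlf and Mecom rule needs detected UMIs and so takes deeper cells. Shares have exact binomial intervals and log2 ratios, with 1 UMI added, exact conditional Poisson intervals. UMIs within a library share their preparation. Python 3.11.15, scipy 1.17.1, R 4.3.3 and edgeR 4.0.16 (TMM only) were used, and the ratio rules were tested on simulated data. Thinning to 2000 UMIs left out 165 and 79 cells.

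Members and lists were chosen with earlier results of these data known. The text names the 3 members with most UMIs, variant forms with their partners, the 5 highest and 5 lowest ratios per stage, the 5 members at each end of the stem-like to late order, 3 at each end of each translation list, and the 5 genes with the most alike and the most opposite stage pattern. Some genes that this rule selects are not reported here. Coordinates and coding lengths come from GENCODE M21 on GRCm38, which held 99.6% of gene IDs, and start sequences from RefSeq. Alternatives covered the cell filter, doublets, total, mean over cells, hashtags, thinning, cuts, thresholds, TMM and variant forms.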

Additional observations from a re-analysis of the deposited data

Results flagged for a closer look

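The direction of the difference in ribosomal share between the libraries was not the same in each stage. The log2 ratio, library labelled Utx-deleted over control, was 0.11 in stem-like cells, 0.044 in early progenitors, 0.13 in Elane progenitors and 0.26 in Ltf neutrophils, but -0.18 in Fcnb pre-neutrophils and -0.047 in late neutrophils. Both hashtags gave the sign of the pooled value in each stage. Other settings turned some of these signs. In Ltf neutrophils the ratio was -0.014 at central depth and 0.041 without barcodes of 2 programmes, and in late neutrophils it was 0.19 with lower marker cuts. Pooled over members under 450 coding bases it was above 0 in each of the 6 stages, and over longer members it was below 0 in each but Ltf neutrophils. These signs did not all hold by hashtag. In hashtag 1 the ratio over members under 450 bases was -0.0065 in Fcnb pre-neutrophils. Over longer members it was 0.0031 in Elane progenitors in hashtag 1. In Ltf neutrophils it was -0.083 in hashtag 1 and 0.18 in hashtag 2 over the longer members. With 1 library per group the difference between stages was not tested.

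Of the pseudogene rows that the name rule leaves out, Rpl36a-ps1 had 5.50 CPM in the library labelled Utx-deleted and 5.03 CPM in the control library. It came up as a row not used in the results above, and the difference was not tested. Of the other rows left out, Rpl10-ps3 had 41.9 CPM in the control library and 36.6 CPM in the other, and Rpl9-ps6 had 41.6 and 34.5 CPM, lower where Rpl36a-ps1 was higher.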

How the results depend on the processing

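Of 159 recomputed values, 67 stayed within their interval or, for counts, within 1.5 times the total or, for medians of lists, within 1 SD over the list's genes, 78 moved and 14 changed sign, and the cause of a change was not tested unless the setting itself gives it. A count of members was judged by its total alone: of 49 recomputed counts 38 kept their total within 1.5 times, and in 5 of those the direction with more members turned. These were Fcnb pre-neutrophils as shares of ribosomal protein UMIs and without barcodes of 2 programmes, late neutrophils under TMM and as shares of ribosomal protein UMIs, and all kept cells in hashtag 1. The log2 ratios of the ribosomal share that moved or changed sign are as follows. As a mean over cells they were 0.12 in stem-like cells, 0.061 in early progenitors, 0.16 in Elane progenitors, -0.19 in Fcnb pre-neutrophils, 0.13 in Ltf neutrophils and -0.092 in late neutrophils, and with the opposite sign 0.012 in all kept cells. With hashtag 1 alone they were 0.069 in stem-like cells, 0.16 in Elane progenitors, -0.20 in Fcnb pre-neutrophils, 0.055 in Ltf neutrophils, -0.033 in late neutrophils and -0.18 in all kept cells. With hashtag 2 alone they were 0.12 in stem-like cells, 0.036 in early progenitors, 0.091 in Elane progenitors, -0.15 in Fcnb pre-neutrophils, 0.33 in Ltf neutrophils and -0.070 in late neutrophils, and with the opposite sign 0.21 in all kept cells. After thinning to 2000 UMIs they were 0.13 in stem-like cells, 0.073 in early progenitors, 0.16 in Elane progenitors, -0.20 in Fcnb pre-neutrophils, 0.15 in Ltf neutrophils and -0.081 in late neutrophils, and with the opposite sign 0.0071 in all kept cells. With lower marker cuts they were 0.16 in stem-like cells, 0.11 in early progenitors, 0.14 in Elane progenitors, -0.14 in Fcnb pre-neutrophils and 0.22 in Ltf neutrophils, and with the opposite sign 0.19 in late neutrophils. With higher marker cuts they were 0.10 in stem-like cells, 0.071 in early progenitors, 0.12 in Elane progenitors, -0.20 in Fcnb pre-neutrophils, 0.19 in Ltf neutrophils and -0.082 in late neutrophils. In cells of the central depth quartiles of their stage they were 0.18 in stem-like cells, 0.087 in early progenitors, -0.13 in Fcnb pre-neutrophils and -0.076 in late neutrophils, and with the opposite sign -0.014 in Ltf neutrophils. Over members of at least 450 coding bases they were -0.33 in Fcnb pre-neutrophils, 0.11 in Ltf neutrophils, -0.20 in late neutrophils and -0.16 in all kept cells, and with the opposite sign -0.023 in stem-like cells, -0.093 in early progenitors and -0.028 in Elane progenitors. Over members under 450 coding bases they were 0.30 in stem-like cells, 0.24 in early progenitors, 0.34 in Elane progenitors and 0.45 in Ltf neutrophils, and with the opposite sign 0.017 in Fcnb pre-neutrophils, 0.15 in late neutrophils and 0.20 in all kept cells. Without mitochondrial and marker genes in the total they were 0.038 in early progenitors, 0.14 in Elane progenitors, -0.16 in Fcnb pre-neutrophils, 0.27 in Ltf neutrophils and -0.022 in late neutrophils, and with the opposite sign 0.0080 in all kept cells. Without barcodes of both hashtags they were 0.12 in Elane progenitors, -0.17 in Fcnb pre-neutrophils and 0.20 in Ltf neutrophils, and with the opposite sign 0.032 in all kept cells. Without doublet removal they were -0.14 in Fcnb pre-neutrophils, 0.15 in Ltf neutrophils, -0.094 in late neutrophils and -0.022 in all kept cells. Without barcodes of 2 programmes they were -0.080 in Fcnb pre-neutrophils, 0.041 in Ltf neutrophils and -0.041 in all kept cells. With at least 1000 genes and under 5% mitochondrial UMIs they were 0.11 in stem-like cells, 0.12 in Elane progenitors, 0.25 in Ltf neutrophils and -0.022 in all kept cells. Without variant forms and Rps19bp1 the ratio was -0.013 in all kept cells. Members counted past 1.5-fold numbered 1 in stem-like cells (1 higher and 0 lower, all genes 4.35% and 7.87%), 0 in early progenitors (0 higher and 0 lower, all genes 3.95% and 5.29%), 3 in Elane progenitors (3 higher and 0 lower, all genes 2.77% and 4.66%), 2 in Fcnb pre-neutrophils (0 higher and 2 lower, all genes 2.2% and 5.63%), 11 in Ltf neutrophils (11 higher and 0 lower, all genes 5.28% and 6.27%), 3 in late neutrophils (0 higher and 3 lower, all genes 3.89% and 9.67%) and 0 in all kept cells (0 higher and 0 lower, all genes 3.17% and 10.6%). Members counted with hashtag 1 alone numbered 16 in Ltf neutrophils (14 higher and 2 lower, all genes 8.02% and 15.4%). Members counted with hashtag 2 alone numbered 31 in all kept cells (31 higher and 0 lower, all genes 10.6% and 15.5%). Members counted as shares of ribosomal protein UMIs numbered 16 in Ltf neutrophils (11 higher and 5 lower, all genes 5.36% and 42.3%). Members counted without barcodes of 2 programmes numbered 16 in Ltf neutrophils (14 higher and 2 lower, all genes 9.51% and 15%). TMM scaling turned the median log2 ratio of the regulators in Elane progenitors from below 0 to 0.011. No paired analysis was possible because each group is 1 library and the labels give no replicate numbers. Alternatives without both-hashtag or 2-programme barcodes, at central depth and by coding length were chosen after the data were seen. Few UMIs per late neutrophil and 63 stem-like cells in the library labelled Utx-deleted limit those stages.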
